A study of Saccharomyces cerevisiae with 24 samples.

Results

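The genes described here are GCN4 and 45 genes of amino acid biosynthesis in Saccharomyces cerevisiae, 46 listed genes in all. The 45 are listed together as genes under Gcn4, and whether each is its target was not tested. They were taken by annotated symbol, with 1 probe set for each gene, and sorted by pathway into threonine, tryptophan, histidine, leucine, isoleucine and valine, arginine, lysine, aromatic and serine synthesis. Of the 46, 45 had a named probe set among the 5449 yeast genes tested, and ARG5,6 was not analysed here. The 45 had mean values from 7.56 for LEU9 to 11.49 for GCN4 on the log2 scale, all above the background level of 5.59, which is the 95th percentile of 1746 probe sets named for genes other than those of S. cerevisiae.

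Gcn4 is the transcription factor of general amino acid control. When an amino acid runs short, uncharged tRNA activates the kinase Gcn2, bulk translation initiation slows, and short upstream reading frames in the GCN4 leader let the Gcn4 protein be made in larger amounts, so its activity is set largely after transcription. Gcn4 then activates genes of nearly every amino acid pathway, on top of pathway-specific regulators such as Leu3, Lys14 and the ArgR complex. Snf1 is the yeast AMP-activated kinase, needed for growth on several carbon sources other than glucose.

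RNA came from steady-state chemostat cultures on minimal medium, in which either the carbon or the nitrogen source limited growth. The 24 arrays form 8 groups of 3: the reference strain and a snf1 mutant, each under carbon (C) or nitrogen (N) limitation, each with a low or a high level of inositol and choline, the lipid precursors whose effect the series set out to measure. The labels give no concentrations and no genotype beyond the strain name, and they do not say whether each of the 3 arrays of a group had its own culture. The p-values therefore reflect only how far these arrays scatter, which may be technical. In bulk RNA, less transcript per cell and fewer cells that carry it cannot be told apart. SNF1 itself read 4.95 to 5.02 on the 12 mutant arrays, below the background level, and 7.09 to 8.47 on the 12 reference arrays. The 6 mutant arrays titled as N-limited carry a description of C limitation and were grouped by title. DAL5, a gene repressed by good nitrogen sources, read 10.85 to 11.72 on these 6 arrays, against 11.31 to 11.97 on the 6 N-limited reference arrays and 6.83 to 7.13 on the 12 C-limited arrays. Comparisons that use the N-limited mutant arrays rest on the titles.

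The balance of 3′ and 5′ signal, a measure of RNA quality, differed with the inositol-choline level. The mean excess of 3′ over 5′ signal of 7 control genes lay between 0.48 and 0.68 (log2) on the 12 arrays with low inositol-choline and between 0.69 and 2.68 on the 12 with high. The first replicates of both N-limited high groups, reference and mutant, stood apart at 2.67 and 2.68, and are called here the pair of lowest 5′ signal. The inositol-choline level and the handling of these arrays cannot be told apart. Several results that rest on the pair are given with and without it, and values are from all arrays where nothing else is said. Comparisons were made with limma on all 24 arrays, and a gene is called higher or lower where its p, adjusted over all 5449 genes, is below 0.05. The SE of a gene rests on 1 spread estimated over all 8 groups, so arrays that are not compared also enter it.

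**Figure D1:**
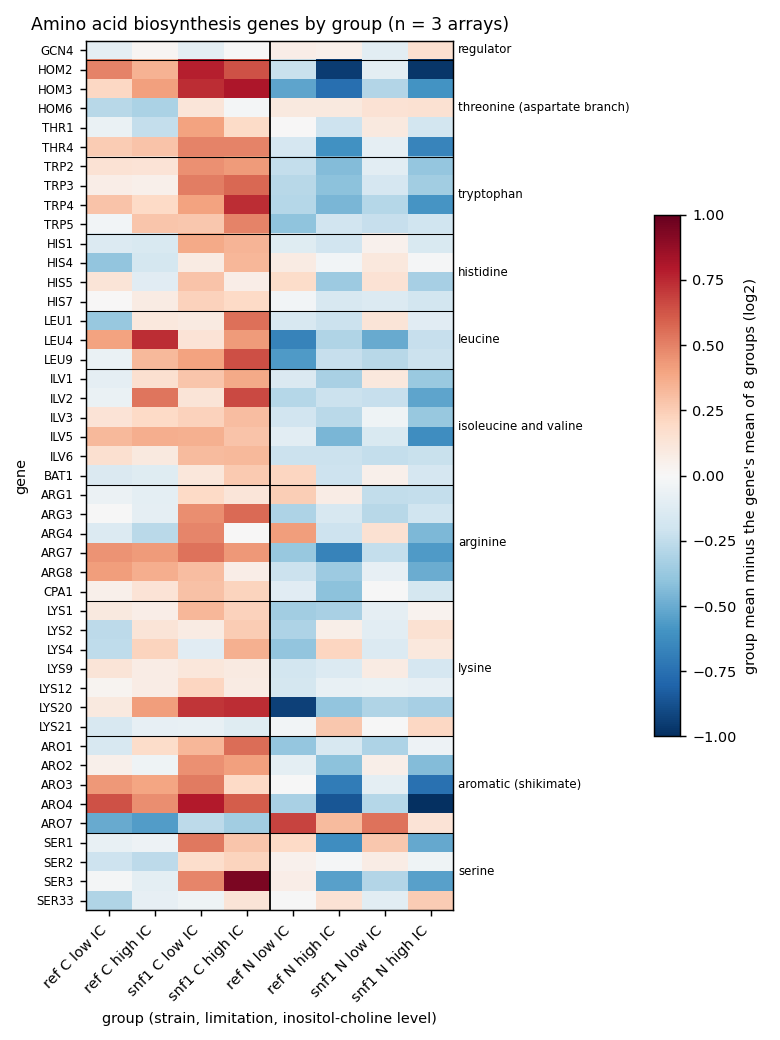
Group means of the 45 measured genes (rows, in pathway order) in the 8 groups (columns, 3 arrays each), as the difference from the mean of the gene's 8 group means on the log2 scale; colours end at 1 in either direction. The C-limited groups lie left of the vertical line, where HOM2, HOM3, LYS20 and ARO4 are high and ARO7 is low.

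The first comparison was between N and C limitation, made in each strain at each inositol-choline level, 4 comparisons that share no array. More members were lower under N limitation than higher in each. In the reference strain at low inositol-choline 20 of 45 were lower and 6 higher, where 19.1% of all genes were called lower and 25.1% higher. At the high level 25 were lower and 4 higher, against 20.9% and 31.4% of all genes. In the snf1 mutant 26 were lower and 1 higher at low inositol-choline, against 15.3% of all genes in each direction, and 32 were lower and 3 higher at high, against 22.1% and 26.5%. The members' median difference was -0.207, -0.366, -0.369 and -0.603 in the same order (log2, N minus C), whereas that of all genes was 0.043, 0.061, 0.026 and 0.029. Without the pair the members' median at high inositol-choline was -0.25 in the reference strain and -0.52 in the mutant. Called lower in all 4 comparisons were 16 members, HOM2, HOM3, THR4, TRP2, TRP3, TRP4, TRP5, LEU4, LEU9, ILV6, ARG7, ARG8, LYS20, ARO1, ARO2 and ARO4, and called higher in all 4 was ARO7. Of these, in the reference strain at low inositol-choline, TRP2 was lost without replicate 3 of the N-limited arrays, ARO2 without replicate 3 of the C-limited or replicate 2 of the N-limited arrays, and THR4 when any of 4 was left out. GCN4, HIS4, HIS5, CPA1, LYS2, LYS4, SER1 and SER2 were called in none of the 4 with all arrays. Here and below, the share of all genes called alike in several comparisons was not counted.

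**Figure D2:**
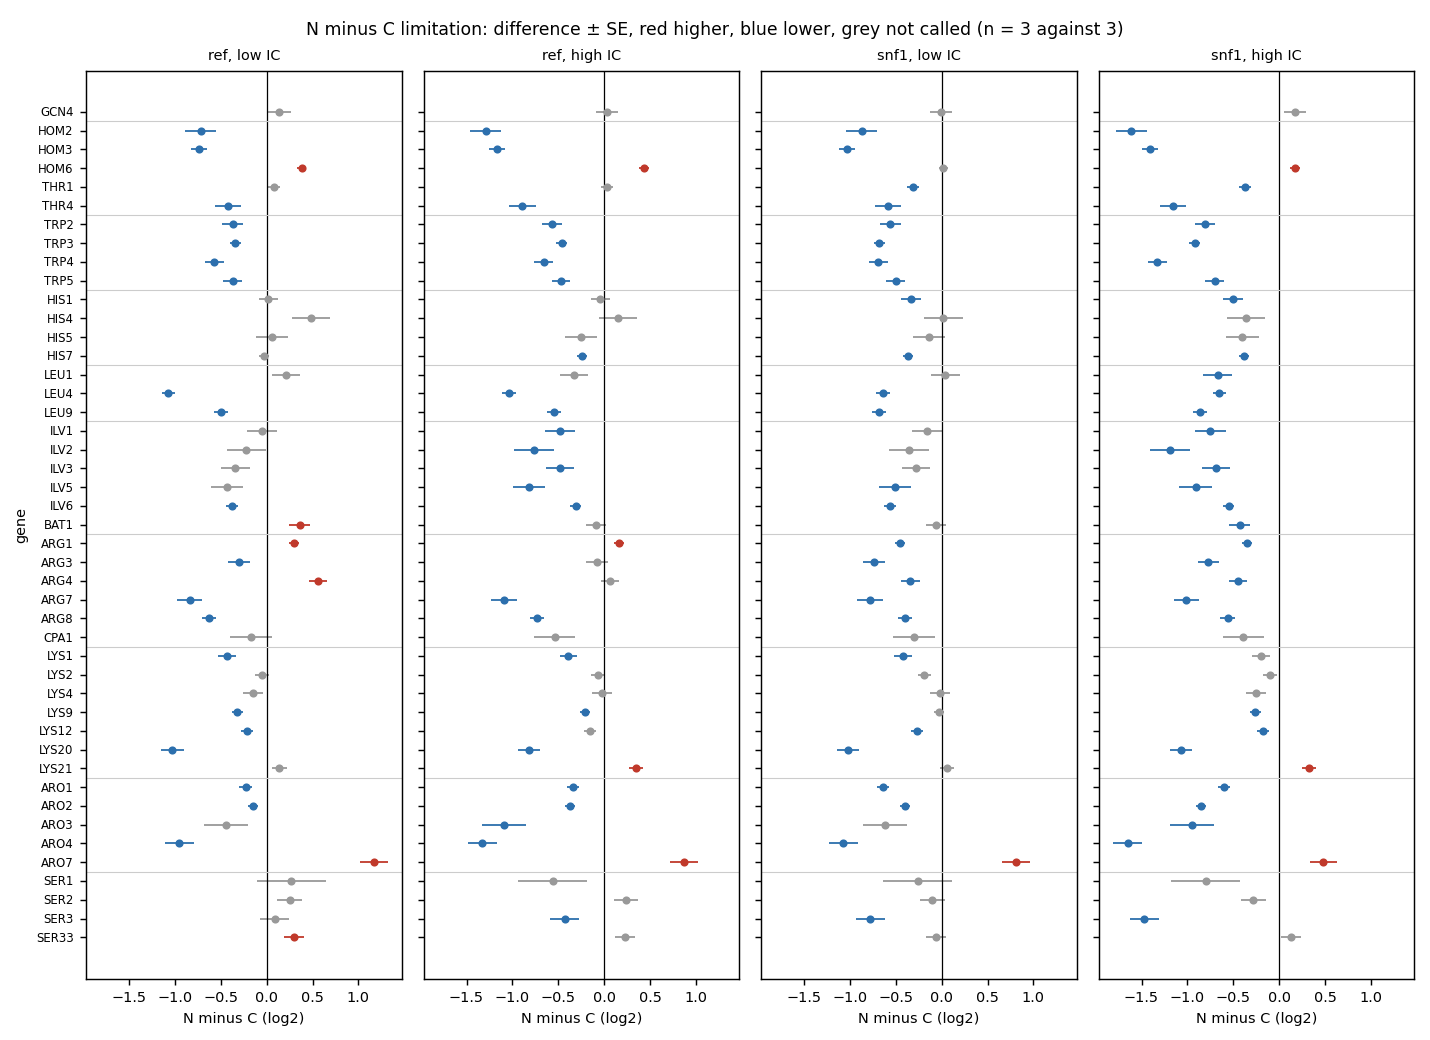
Difference between N and C limitation (log2, horizontal axis) for the 45 genes in the 4 combinations of strain and inositol-choline (IC) level; bars are the SE from limma, 3 arrays against 3. Blue points, called lower, outnumber red points, called higher, in every panel, with 20 against 6 at the left and 32 against 3 at the right.

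The GCN4 transcript was not called in any of the 12 pairwise comparisons of groups. It read 11.44, 11.34 and 11.43 on the C-limited and 11.58, 11.65 and 11.41 on the N-limited reference arrays at low inositol-choline, so the groups overlap. The difference of 0.14 ± 0.121 (SE) had a 95% confidence interval of -0.11 to 0.40 and an adjusted p of 0.371. Its 24 values spanned 11.13 to 11.84, both ends on N-limited reference arrays with high inositol-choline. Without the pair of lowest 5′ signal, the difference of 0.14 passed the threshold (adjusted p = 0.0221), as did 0.24 in the reference strain and 0.28 in the mutant at high inositol-choline (adjusted p = 0.00159 and 0.000377), all towards more GCN4 under N limitation, while the mutant at low inositol-choline gave -0.01 (adjusted p = 0.836). Also without the pair, GCN4 was higher at high than at low inositol-choline under N limitation, by 0.20 in the reference strain and 0.38 in the mutant (adjusted p = 0.00996 and 2.4e-05).

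The aspartate branch, which leads to threonine and methionine, held both large decreases and an exception. HOM2, aspartate semialdehyde dehydrogenase, read 10.43, 10.38 and 10.47 on the C-limited reference arrays at low inositol-choline and 9.75, 9.70 and 9.65 on the N-limited ones. All 12 N-limited arrays, at 8.43 to 9.91, were below all 12 C-limited arrays, at 10.25 to 10.76. The decreases were 1.65-fold and 2.44-fold in the reference strain at low and high inositol-choline and 1.83-fold and 3.05-fold in the mutant. With each array left out in turn, the log2 difference at the high level ranged from -1.44 to -1.01 in the reference strain. In the mutant it ranged from -1.77 to -1.39. HOM3, the aspartate kinase that opens the branch, was 1.67-fold to 2.66-fold lower in the 4 comparisons, with adjusted p from 9.45e-11 to 6.21e-07. THR4, threonine synthase, was 1.34-fold to 2.23-fold lower, and of these the first, in the reference strain at low inositol-choline (adjusted p = 0.0212), was lost when any of 4 arrays was left out. HOM6, homoserine dehydrogenase, went the other way. It read 10.25, 10.21 and 10.37 under C limitation and 10.68, 10.64 and 10.66 under N limitation in the reference strain at low inositol-choline, with no overlap, a difference of 0.38 ± 0.0536 (adjusted p = 7.19e-06). In the mutant it was called higher at high inositol-choline only, by 0.17 ± 0.0536 (adjusted p = 0.0148), a call lost without replicate 2 of the C-limited or replicate 1 of the N-limited arrays. THR1, homoserine kinase, was called lower in the mutant, by 0.31 ± 0.0636 and 0.37 ± 0.0636, and not in the reference strain.

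All 4 measured tryptophan genes were called lower under N limitation in all 4 comparisons. TRP4, anthranilate phosphoribosyltransferase, had the largest fitted decrease of these 4 in each comparison, although in the mutant at low inositol-choline its -0.69 stood beside -0.68 for TRP3. Without the pair that order turned in the reference strain at high inositol-choline, with -0.51 for TRP4 and -0.53 for TRP3. Its values were 8.36, 8.42 and 8.42 under C limitation and 7.86, 7.82 and 7.80 under N limitation in the reference strain at low inositol-choline. The groups did not overlap, and the difference was -0.57 ± 0.103 (adjusted p = 0.000122), and -1.33 ± 0.103 in the mutant at high inositol-choline (adjusted p = 2.97e-09). TRP2 and TRP3, whose products form anthranilate synthase, and TRP5, tryptophan synthase, were lower by 0.34 to 0.92 across the comparisons. Of the 4 histidine genes none was called in the reference strain at low inositol-choline. HIS4, a multifunctional enzyme of the pathway, read 9.75, 9.94 and 9.93 under C and 10.40, 10.36 and 10.29 under N limitation there, higher on every N-limited array, but the difference of 0.48 ± 0.209 was not called (adjusted p = 0.0712). HIS1, the first enzyme, and HIS7 were called lower under N limitation in the mutant at both levels, HIS1 by 0.33 ± 0.108, lost when any of 4 arrays was left out, and 0.50 ± 0.108. HIS7 was lower by 0.37 and 0.38 in the mutant and also by 0.24 ± 0.0553 in the reference strain at high inositol-choline (adjusted p = 0.00119).

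**Figure D3:**
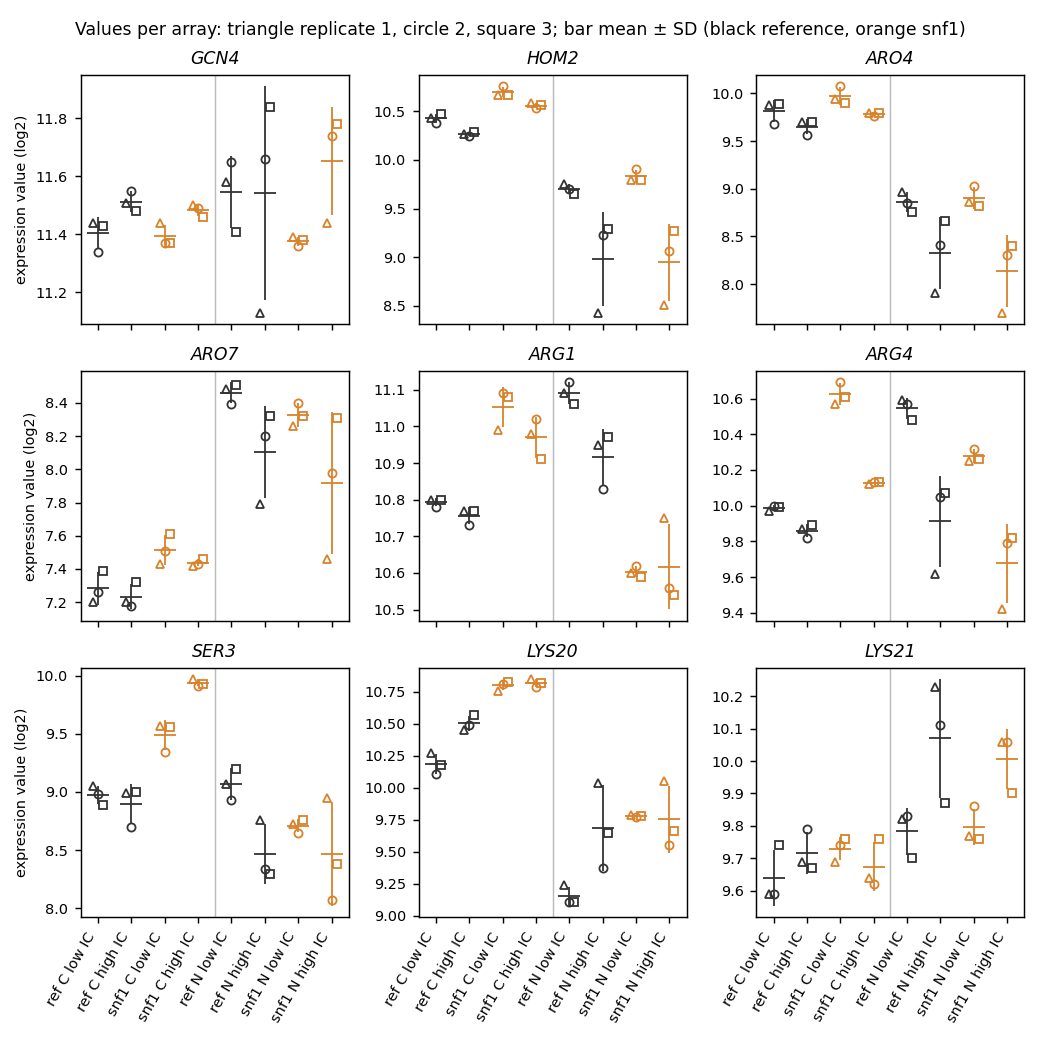
Values of 9 genes on each of the 24 arrays (log2, vertical axes that differ between panels and do not start at 0), with the mean and SD of each group of 3; C-limited groups are left of the grey line and IC stands for inositol-choline. HOM2 and ARO4 are lower and ARO7 higher on N-limited arrays, and the triangles of the N-limited high groups, the pair of lowest 5′ signal, often lie apart from the other symbols.

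In aromatic synthesis ARO7 had the largest increase of the 45 members in each of the 4 comparisons, with all arrays and without the pair, and ARO4 was among the 3 with the largest decreases in both settings. ARO3 and ARO4 encode the isoenzymes that make DAHP, the first step of the shikimate pathway, ARO1 and ARO2 carry it to chorismate, and ARO7, chorismate mutase, draws chorismate away from tryptophan to phenylalanine and tyrosine. ARO4 read 9.88, 9.68 and 9.89 under C limitation and 8.97, 8.85 and 8.76 under N limitation in the reference strain at low inositol-choline. No N-limited array of any group reached a C-limited one, and the decrease was 1.94-fold there (adjusted p = 5.84e-05) and 3.13-fold in the mutant at high inositol-choline (adjusted p = 7.22e-08). The second, as a log2 difference, ranged from -1.78 to -1.43 with each array left out in turn. ARO1 and ARO2 were lower by 0.15 to 0.85. ARO3 was called only at high inositol-choline, lower by 1.09 ± 0.24 in the reference strain and 0.95 ± 0.24 in the mutant, and by 0.70 and 0.65 without the pair of lowest 5′ signal. ARO7 read 7.20, 7.26 and 7.39 under C and 8.48, 8.39 and 8.51 under N limitation in the reference strain at low inositol-choline. Its increase was 2.26-fold there, 1.83-fold in the reference strain at high inositol-choline, 1.76-fold in the mutant at low and 1.4-fold in the mutant at high. In the last of these the groups overlap, since the N-limited arrays read 7.46, 7.98 and 8.31 and the highest C-limited array also 7.46, and the call (adjusted p = 0.0112) was lost without replicate 3 of the N-limited arrays. ARO4 thus fell and ARO7 rose in all 4 comparisons, and no test set the genes against each other.

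Leucine synthesis starts with LEU4 and LEU9, which encode isopropylmalate synthases. LEU4 read 10.60, 10.53 and 10.69 under C and 9.48, 9.58 and 9.56 under N limitation in the reference strain at low inositol-choline, a 2.09-fold decrease (adjusted p = 4.42e-10). In the mutant the decrease was smaller, 1.56-fold at low and 1.57-fold at high inositol-choline. LEU9 was lower in all 4 comparisons as well, by 1.41-fold to 1.82-fold. LEU1, the isomerase of the next step, was called only in the mutant at high inositol-choline, 1.59-fold lower. Of the isoleucine and valine genes, ILV6, the regulatory subunit of acetolactate synthase, was lower in all 4, by 0.31 to 0.56. ILV2, its catalytic subunit, with ILV1, ILV3 and ILV5, was called lower in each strain at the high level, where the N-limited groups hold the pair of lowest 5′ signal. In the reference strain ILV1 was lost when any of 4 arrays was left out and ILV3 without the first N-limited replicate, which moved ILV1 from -0.48 to -0.29 and ILV3 from -0.48 to -0.26. ILV5, the reductoisomerase of the pathway, was also lower in the mutant at low inositol-choline, by 0.51 ± 0.176 (adjusted p = 0.0313, lost when any of 6 arrays was left out). At high inositol-choline ILV2 read 10.05, 10.17 and 9.85 on C-limited and 9.00, 9.23 and 9.57 on N-limited reference arrays, with the first replicate lowest. Without the pair its difference was -0.63 in place of -0.76 in the reference strain and -0.78 in place of -1.19 in the mutant, called in both. BAT1, the mitochondrial branched-chain aminotransferase, was higher by 0.36 ± 0.112 in the reference strain at low inositol-choline (adjusted p = 0.0137, lost without replicate 1 of the N-limited arrays) and lower by 0.43 ± 0.112 in the mutant at high (adjusted p = 0.00377).

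Of the 6 arginine genes, 5 were lower in the mutant at both inositol-choline levels. ARG7 and ARG8, mitochondrial enzymes on the way to ornithine, were lower in all 4 comparisons, in both strains. ARG7, ornithine acetyltransferase, read 9.22, 9.20 and 9.19 under C and 8.35, 8.33 and 8.42 under N limitation in the reference strain at low inositol-choline, 1.78-fold lower, with no overlap. ARG1 and ARG4 differed between strains. ARG1, argininosuccinate synthetase, read 10.80, 10.78 and 10.80 under C and 11.09, 11.12 and 11.06 under N limitation in the reference strain at low inositol-choline, higher by 0.30 ± 0.0538 (adjusted p = 0.000123). In the mutant it read 10.99, 11.09 and 11.08 under C and 10.60, 10.62 and 10.59 under N limitation, lower by 0.45 ± 0.0538 (adjusted p = 1.71e-06), so the groups are apart in each strain and the order is turned. ARG4, argininosuccinate lyase, was likewise 1.47-fold higher in the reference strain and 1.27-fold lower in the mutant at low inositol-choline, the second lost without replicate 2 of the C-limited mutant arrays. ARG3, ornithine carbamoyltransferase, was 1.67-fold and 1.7-fold lower in the mutant, and its decrease of 0.30 ± 0.118 in the reference strain at low inositol-choline (adjusted p = 0.048) was lost when any of 17 arrays was left out. CPA1, the small subunit of the carbamoyl phosphate synthetase of this pathway, read 9.15 and 9.45 on the pair and 10.14 to 10.44 on the other 10 N-limited arrays, and was not called.

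Lysine synthesis begins with homocitrate synthase, encoded by LYS20 and LYS21. LYS20 read 10.27, 10.11 and 10.18 under C and 9.24, 9.11 and 9.11 under N limitation in the reference strain at low inositol-choline, 2.05-fold lower (adjusted p = 1.02e-06), and was 1.76-fold to 2.09-fold lower in the other comparisons. LYS21 read 9.59, 9.59 and 9.74 and then 9.82, 9.83 and 9.70, groups that overlap, and its difference of 0.14 was not called. At high inositol-choline LYS21 was higher under N limitation, by 0.35 ± 0.0772 in the reference strain and 0.33 ± 0.0772 in the mutant. The difference between these isogenes, and whether either probe set also detects the other's transcript, was not tested. LYS1, LYS9 and LYS12, enzymes of later steps, were lower by 0.18 to 0.43 in the comparisons in which they were called. LYS12 was lost when any of 2 arrays was left out in the reference strain at low inositol-choline and any of 4 in the mutant at high. LYS2 and LYS4 were called in none. Serine synthesis showed no common direction. SER3, a phosphoglycerate dehydrogenase, was 1.72-fold and 2.77-fold lower in the mutant, and 1.35-fold lower in the reference strain at high inositol-choline, where the groups overlap (adjusted p = 0.0276, lost when any of 4 arrays was left out). In the mutant at high inositol-choline the log2 difference of SER3 ranged from -1.71 to -1.27 with each array left out in turn. SER33, its isoenzyme, was higher by 0.30 ± 0.109 in the reference strain at low inositol-choline (adjusted p = 0.0301), lost when any of 3 arrays was left out. SER1, phosphoserine aminotransferase, read 7.18 and 7.45 on the pair and 8.88 to 9.29 on the other 10 N-limited arrays, and its differences of -0.80 to 0.27 had an SE of 0.374.

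With each array left out in turn, 19 of 26, 25 of 29, 24 of 27 and 32 of 35 of the calls between limitations were kept, in the order of the comparisons above, and the share of all genes called in either direction was 44.3%, 52.3%, 30.6% and 48.6%. Without the pair 36, 36, 34 and 40 members were called, among 65.8%, 66.1%, 53.5% and 64.4% of all genes. Of these members 25, 29, 33 and 36 were lower and 11, 7, 1 and 4 higher.

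The second comparison was of the snf1 mutant with the reference strain. Under C limitation the members that differed were nearly all higher in the mutant. At low inositol-choline 20 of 45 were higher and 1 lower, where calls among all genes were 20.2% higher and 14.3% lower. At the high level 17 were higher and 2 lower, against 18% and 14.8% of all genes. Higher at both levels were 14 members, HOM3, HOM6, THR1, TRP3, HIS1, LEU1, LEU9, ARG1, ARG3, ARG4, ARO1, ARO2, SER2 and SER3, and LEU4 was lower at both. The share of all genes called alike at both levels was not counted. Under N limitation 3 members were higher and 1 lower at low inositol-choline, against 4.72% and 5.01% of all genes, and 1 higher and 1 lower at high, against 2.17% and 1.98%, shares of the members that lie near those of all genes. The members' median difference was 0.261 and 0.217 under C limitation and 0.0814 and -0.00626 under N limitation (log2, mutant minus reference), that of all genes 0.054, 0.034, -0.003 and -0.008. Without the pair the calls rose to 34 and 32 under C limitation and to 20 (15 higher, 5 lower) and 4 under N limitation, among 58.5%, 56.8%, 28.5% and 9.67% of all genes. Under N limitation at low inositol-choline 7 or 8 were called without the reference or the mutant array of the pair alone, and at high inositol-choline 1 when any single mutant array of that group was left out.

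**Figure D4:**
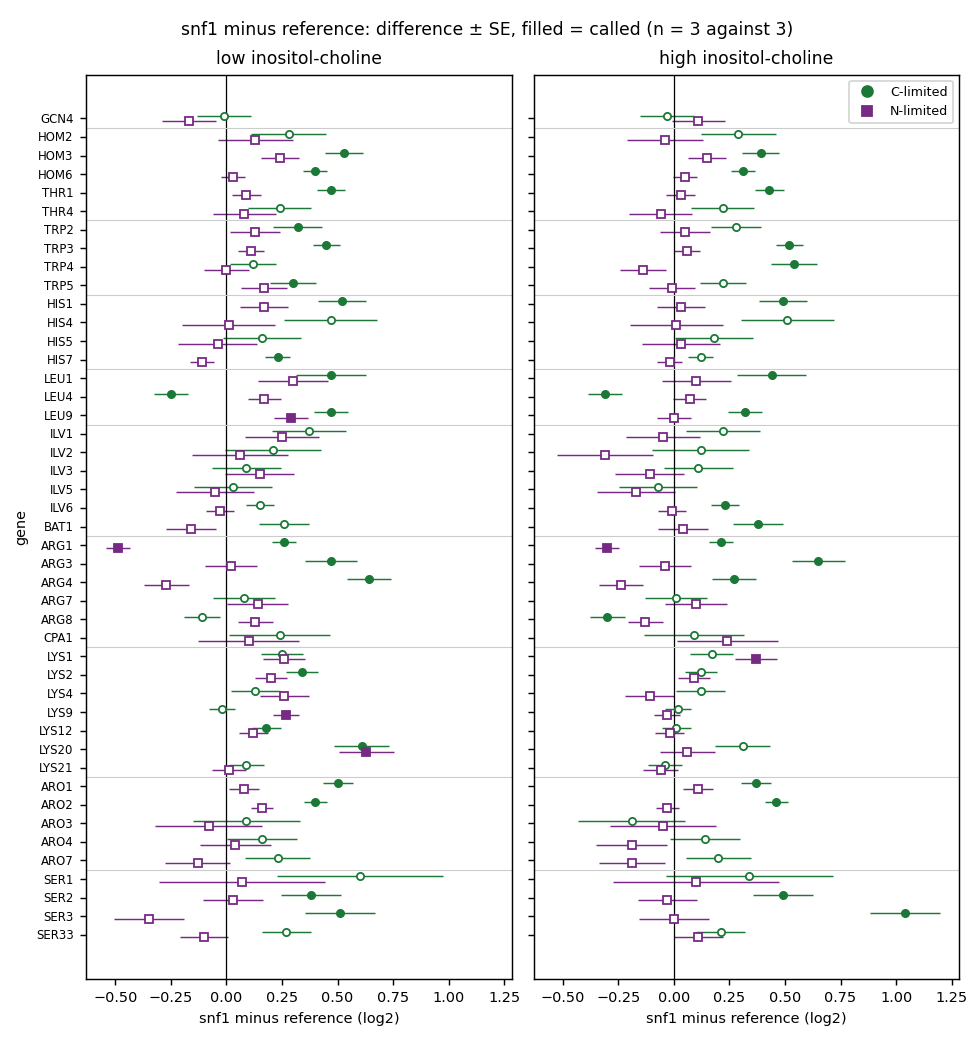
Difference between the snf1 mutant and the reference strain (log2, horizontal axis) under C (green circles) and N limitation (purple squares); bars are the SE from limma, 3 arrays against 3, and filled symbols are called. The green symbols lie mostly to the right of 0 and the purple ones near it; LEU4 under C and ARG1 under N limitation are called lower in both panels.

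At high inositol-choline the largest increase in the C-limited mutant was that of SER3. It read 9.05, 8.98 and 8.89 on the reference and 9.57, 9.34 and 9.56 on the mutant arrays at low inositol-choline, and 8.99, 8.70 and 9.00 against 9.97, 9.91 and 9.93 at high. The groups did not overlap at either level, and the differences were 0.51 ± 0.158 (adjusted p = 0.0159, lost when any of 3 arrays was left out) and 1.04 ± 0.158 (adjusted p = 3.21e-05). SER33 gave 0.27 ± 0.109 and 0.21 ± 0.109 and was not called, with adjusted p of 0.0671 and 0.166. SER2, phosphoserine phosphatase, was higher by 0.38 ± 0.134 and 0.49 ± 0.134, the first lost when any of 5 arrays was left out.

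In arginine synthesis the 3 last enzymes were higher in the C-limited mutant. ARG4 read 9.97, 10.00 and 9.99 on the reference and 10.57, 10.69 and 10.61 on the mutant arrays at low inositol-choline, 1.55-fold higher (adjusted p = 4.34e-05), and 1.2-fold higher at high inositol-choline (adjusted p = 0.0443, lost when any of 18 arrays was left out). ARG3 was 1.38-fold and 1.57-fold higher, and ARG1 1.2-fold and 1.16-fold. ARG8, at an early step, was 1.23-fold lower at high inositol-choline, with 9.13, 9.16 and 9.16 on the reference and 8.81, 8.89 and 8.85 on the mutant arrays. In the aspartate branch HOM3 read 9.60, 9.35 and 9.47 on the reference and 9.96, 10.09 and 9.95 on the mutant arrays at low inositol-choline, 1.44-fold higher, and was 1.31-fold higher at high. HOM6 and THR1 were higher by 0.31 to 0.47 at the 2 levels, with adjusted p from 6.41e-06 to 0.000143. HOM2 and THR4 gave 0.22 to 0.29 with no overlap between strains, but were not called.

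Of the tryptophan genes TRP2 and TRP5 were higher at low inositol-choline only, by 0.32 and 0.30, calls lost when any of 5 and any of 4 arrays was left out. TRP3 was 1.37-fold and 1.43-fold higher in the C-limited mutant, at 8.28, 8.19 and 8.26 against 8.65, 8.71 and 8.72 on the arrays with low inositol-choline. TRP4 was called only at high inositol-choline, at 8.30, 8.30 and 8.37 against 8.87, 8.83 and 8.88, 1.45-fold higher (adjusted p = 0.000366). Whether its 2 differences differ was tested by the interaction of strain and inositol-choline in limma, which was 0.42 ± 0.145 with an adjusted p of 0.142. It was not called, which does not show that the differences are equal. HIS1 was higher by 0.52 ± 0.108 and 0.49 ± 0.108, and HIS7 by 0.23 ± 0.0553 at low inositol-choline. HIS4 gave 0.47 and 0.51 with no overlap between strains, but an SE of 0.209 and adjusted p of 0.0909 and 0.0693. The SD of HIS4 was 0.0261 to 0.127 within the C-limited groups. It was 0.532 and 0.524 in the N-limited high groups of the reference strain and the mutant, which also enter that SE. In the shikimate pathway ARO1 and ARO2 were higher by 0.37 to 0.50, ARO3, ARO4 and ARO7 were not called, and for ARO4 the differences were 0.16 and 0.14.

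The isopropylmalate synthase genes differed in direction in the C-limited mutant. LEU4 read 10.60, 10.53 and 10.69 on the reference and 10.41, 10.41 and 10.24 on the mutant arrays at low inositol-choline, and 10.94, 11.11 and 10.80 against 10.67, 10.64 and 10.60 at high. It was lower by 0.25 ± 0.0751 (adjusted p = 0.013, lost without replicate 3 of either group) and 0.31 ± 0.0751 (adjusted p = 0.00285). LEU9 read 7.43, 7.39 and 7.64 against 7.93, 8.01 and 7.94 at low inositol-choline and was higher by 0.47 ± 0.0759 and, at high, by 0.32 ± 0.0759. LEU1 was higher by 0.47 ± 0.156 and 0.44 ± 0.156, the calls lost when any of 3 and any of 5 arrays was left out. None of 6 isoleucine and valine genes was called by limma at low inositol-choline, with 3 at an unadjusted p under 0.05, and ILV6 and BAT1 were higher at high, by 0.23 and 0.38, BAT1 lost without replicate 2 of the reference arrays. Of the lysine genes LYS2, LYS12 and LYS20 were higher at low inositol-choline and none was called at high. For LYS12 the groups overlap and the call was lost when any of 4 arrays was left out. LYS20, at 10.27, 10.11 and 10.18 against 10.76, 10.81 and 10.83, was 1.53-fold higher (adjusted p = 0.000614), and at high inositol-choline its difference was 0.31 ± 0.124 with an adjusted p of 0.06.

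Under N limitation ARG1 was the member called at both levels. The reference arrays at low inositol-choline read 11.09, 11.12 and 11.06 and the mutant arrays 10.60, 10.62 and 10.59, so the mutant was lower by 0.49 ± 0.0538 (adjusted p = 3.25e-06). At high inositol-choline the values were 10.95, 10.83 and 10.97 against 10.75, 10.56 and 10.54, lower by 0.30 ± 0.0538 (adjusted p = 0.00232). ARG4 was lower by 0.27 and 0.24 without being called, the first with no overlap between strains, and passed the threshold without the pair (adjusted p = 2.5e-05 and 0.00118). LYS20 was 1.55-fold higher at low inositol-choline, at 9.24, 9.11 and 9.11 against 9.79, 9.77 and 9.78 (adjusted p = 0.00189), and LYS9 and LEU9 were higher by 0.27 and 0.29, LEU9 lost when any of 5 arrays was left out. At high inositol-choline LYS1, which makes lysine from saccharopine, was called higher by 0.37 ± 0.0956 (adjusted p = 0.036). Its reference arrays read 8.78, 9.24 and 9.24 and the mutant arrays 9.54, 9.39 and 9.43, and without the pair the difference was 0.17 (adjusted p = 0.163), and the call was lost when any of 4 arrays was left out. In this last comparison, same-numbered arrays of the strains deviated together (correlations of 0.784 to 0.901 over all genes), and when the number was fitted as a block 7 members were called in place of 2, 2 of them higher and 5 lower, where 19% of all genes were called.

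Whether the change between limitations differed by strain was tested as an interaction, the N minus C difference in the mutant minus that in the reference strain. At low inositol-choline 9 of 45 members had a lower and 2 a higher interaction, where calls among all genes were 10.8% and 8.74%. At high inositol-choline 11 were lower and 1 higher, against 10.6% and 9.95%. Both tests called HOM6, THR1, TRP3, ARG1, ARG4, ARO2 and SER3 lower, so that the N minus C difference was lower in the mutant, and LEU4 higher. For ARG1 the interaction was -0.75 ± 0.076 at low inositol-choline (adjusted p = 3.72e-07) and -0.52 ± 0.076 at high (adjusted p = 3.95e-05). For ARG4 it was -0.90 ± 0.141 and -0.51 ± 0.141, and for SER3 -0.87 ± 0.224 and -1.04 ± 0.224. The 9.05, 8.98 and 8.89 of SER3 on C-limited reference arrays at low inositol-choline compare with 9.07, 8.93 and 9.20 under N limitation, whereas the mutant went from 9.57, 9.34 and 9.56 to 8.72, 8.65 and 8.76. LEU4, by contrast, decreased less in the mutant, with interactions of 0.42 ± 0.106 and 0.38 ± 0.106 (adjusted p = 0.0067 and 0.0131). HOM2, TRP2, ARG7, LYS20 and ARO4, lower under N limitation in both strains, had no called interaction, with values between -0.32 for HOM2 and ARO4 and 0.08 for ARG7, all at high inositol-choline. Without the pair 23 and 26 members had a called interaction, among 41.2% and 38% of all genes.

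The third comparison was between high and low inositol-choline. Under C limitation few members differed, and most of those were higher. In the reference strain 7 were higher and 0 lower, where 7.85% and 6.96% of all genes were called, and limma gave 11 members at an unadjusted p under 0.05 in either direction. In the mutant 7 were higher and 3 lower, against 10.2% and 13.2%. LEU1, LEU4, LEU9, LYS4 and ARO1 were higher in both strains. Under N limitation 7 members were higher and 11 lower in the reference strain, against 16.6% and 14.9% of all genes, and 5 were higher and 16 lower in the mutant, against 19.5% and 17.7%. With the 3′ minus 5′ signal as a covariate the balance in the reference strain turned to 16 higher and 9 lower, and in the mutant 9 were higher and 14 lower. LEU4 and ARO1 were called higher in all 4 comparisons. Without the pair the calls were 17 and 22 under C and 26 and 32 under N limitation in the reference strain and the mutant, among 48.1%, 53.3%, 43.9% and 52% of all genes. Of the calls under C limitation without the pair, 13 were higher and 4 lower in the reference strain, and 13 and 9 in the mutant. Single arrays moved the counts from all arrays. Under C limitation 3 of the 7 calls in the reference strain and 2 of the 10 in the mutant were kept with each array left out. In the reference strain under C limitation 4 members were called without replicate 2 of the low arrays and 3 without replicate 2 of the high arrays, and under N limitation 11 without replicate 1 of the low arrays. In the mutant under C limitation 4 were called without replicate 1 of the low or any replicate of the high arrays and 2 without replicate 3 of the low arrays, and under N limitation 13 without replicate 3 of the low arrays.

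All 3 leucine genes were higher under C limitation in both strains. LEU4 rose from 10.60, 10.53 and 10.69 to 10.94, 11.11 and 10.80 in the reference strain, by 0.34 ± 0.0751 (adjusted p = 0.00594, lost without replicate 2 of the high arrays), and by 0.28 ± 0.0751 in the mutant (lost without replicate 3 of the low arrays). LEU9 rose from 7.43, 7.39 and 7.64 to 7.82, 7.98 and 7.83 in the reference strain, by 0.39 ± 0.0759 (adjusted p = 0.00273), and LEU1 rose by 0.49 ± 0.156, a call lost when any of 15 arrays was left out. In the mutant the calls of LEU1 and LEU9 were lost when any of 6 and any of 5 arrays was left out. LYS4, homoaconitase, rose from 8.75, 8.59 and 8.99 to 9.25, 9.39 and 9.13 in the reference strain and from 9.04, 8.84 and 8.83 to 9.35, 9.41 and 9.37 in the mutant, by 0.48 ± 0.111, lost without replicate 2 of either reference group, and 0.47 ± 0.111. The high arrays were above the low ones for each of these genes in each strain. ILV2, the acetolactate synthase subunit, gave 0.61 ± 0.217 and 0.52 ± 0.217 with no overlap, but adjusted p of 0.0656 and 0.0911, and passed the threshold without the pair. ARG4 fell in the mutant, from 10.57, 10.69 and 10.61 to 10.12, 10.13 and 10.13, by 0.50 ± 0.0994 (adjusted p = 0.00125), and gave -0.13 in the reference strain. The interaction of strain and inositol-choline for ARG4 was -0.37 ± 0.141 with an adjusted p of 0.211. That interaction was called by limma for 0 of 45 members under either limitation, with 4 and 7 at an unadjusted p under 0.05. The background was 4.15% of all genes called under C and 2.07% under N limitation. Without the pair 4 and 3 members were called, among 16.8% and 7.4% of all genes.

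Under N limitation HOM2, THR1, THR4, HIS5, ARG4, ARO2, ARO3 and ARO4 were lower with high inositol-choline in both strains, and LEU4, LYS2, LYS21 and ARO1 higher. The share of all genes called alike in both strains was not counted. With each array left out in turn, 9 of the 18 calls in the reference strain and 11 of the 21 in the mutant were kept. In the reference strain THR1 was lost when any of 3 arrays was left out, THR4, HIS5 and ARO3 any of 4, and ARO4, LYS21 and ARO1 any of 2. In the mutant HIS5, LYS21 and ARO3 were lost when any of 4 was left out, and HIS5 there gave 0.01 with the covariate. The pair of lowest 5′ signal is 1 of the 3 high arrays in each strain here. HOM2 read 9.75, 9.70 and 9.65 at low and 8.43, 9.23 and 9.29 at high inositol-choline in the reference strain, and 9.79, 9.91 and 9.79 against 8.51, 9.06 and 9.27 in the mutant. The first replicate was lowest in both high groups, yet the other high arrays also lay below the low ones, and without the pair the differences were -0.44 and -0.67 in place of -0.72 and -0.89, both called. ARG4 kept differences of -0.48 and -0.48 without the pair, in place of -0.63 and -0.60. ARO2, chorismate synthase, was little moved by the pair, at 8.93, 8.81 and 8.95 against 8.60, 8.56 and 8.61 in the reference strain and 9.01, 9.11 and 9.05 against 8.59, 8.47 and 8.64 in the mutant. Its decreases were 0.31 ± 0.0512 (adjusted p = 0.000259) and 0.49 ± 0.0512 (adjusted p = 1.18e-06). ARO3 was the opposite case. Its high arrays read 7.01, 8.07 and 8.30 in the reference strain and 7.14, 7.88 and 8.20 in the mutant, and the differences went from -0.68 and -0.65 to -0.29 and -0.35 without the pair, and to 0.02 and 0.04 with the 3′ minus 5′ signal as a covariate. The part of RNA quality in these decreases was not tested further.

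**Figure D5:**
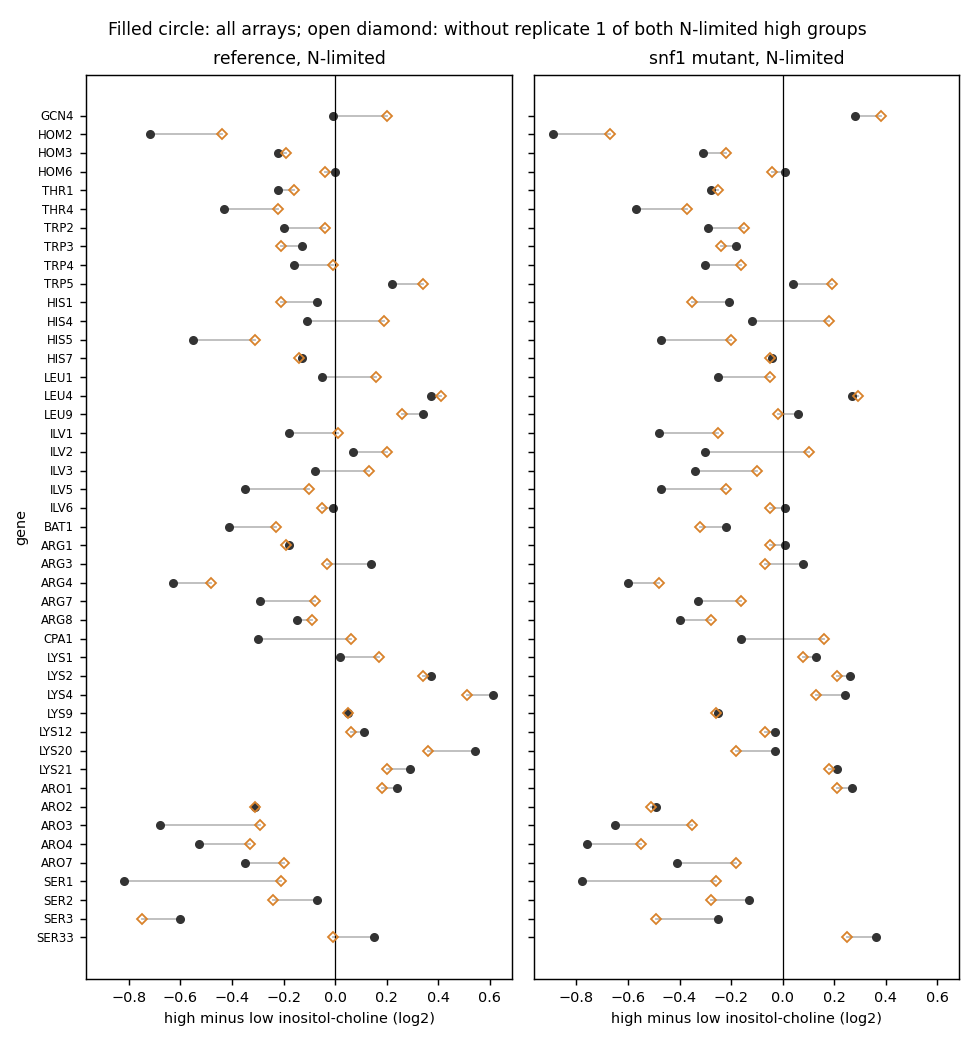
Difference between high and low inositol-choline (log2, horizontal axis) for the 45 genes under N limitation, from all arrays (filled circles) and without the pair of lowest 5′ signal (open diamonds), which takes 1 of 3 arrays from each high group. The line between the symbols is long for SER1, ARO3 and CPA1 and short for LEU4 and ARO2.

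On the pair itself the members scattered both ways. In the reference strain 27 of the 45 were lower and 18 higher on the first N-limited high replicate than the mean of the other replicates, from -1.81 to 0.53 with a median of -0.17. In the mutant 24 were lower and 21 higher, from -1.56 to 0.73 with a median of -0.08. SER1 lay lowest in both strains, at -1.81 and -1.56, followed by ARO3 in the reference strain and by ILV2 in the mutant, at -1.17 and -1.21. LYS20, at 10.04 against 9.37 and 9.65 in the reference strain and 10.05 against 9.55 and 9.66 in the mutant, was higher on the pair.

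Whether the response to inositol-choline differed between limitations was tested as an interaction. Of the 45 members 2 were called in the reference strain and 6 in the mutant, all of them lower. In each strain the share of members called lower was above that of all genes, and the share called higher was below it. These shares were not compared by a test. This interaction, N minus C of the high minus low difference, was lower in the reference strain for HOM3 and ARG4, by 0.43 ± 0.12 and 0.50 ± 0.141 (adjusted p = 0.0447 and 0.0448), among 2.2% of all genes called lower and 2.73% higher, and for no member with the replicate block or median centring. In the mutant it was lower for HOM2, HOM3, TRP4, LEU1, ARO2 and SER3, among 6.07% lower and 8.96% higher. For ARO2 it was -0.45 ± 0.0724 (adjusted p = 0.000247) and for TRP4 -0.64 ± 0.145 (adjusted p = 0.00494), calls kept with each array left out, while the other 4 and both in the reference strain were lost without at least 1 array. Without the pair 9 and 19 members were called, among 16.1% and 32.8% of all genes. With all arrays no member was called higher in either strain.

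Other genes of amino acid synthesis, outside the 46, were counted in the same comparisons. Of 23 measured, 7, 7, 11 and 11 were lower under N limitation and 3, 3, 1 and 1 higher, in the order used above. Of all genes 19.1%, 20.9%, 15.3% and 22.1% were called lower and 25.1%, 31.4%, 15.3% and 26.5% higher. ARO9, an aromatic aminotransferase that mainly serves the breakdown of aromatic amino acids, gave differences of -1.78 ± 0.119 and -2.36 ± 0.119 in the reference strain (adjusted p = 1.95e-10 and 2.43e-12) and of -0.80 and -1.82 in the mutant, all called lower. In the C-limited mutant 20.2% of all genes were called higher and 14.3% lower at low inositol-choline, and 18% higher and 14.8% lower at high. Of the 23 genes, 13 were higher and 1 lower at low inositol-choline and 8 higher at high. Among them, PRO1, the first enzyme of proline synthesis, was higher by 0.45 ± 0.0599 and 0.51 ± 0.0599, and ASN1, an asparagine synthetase, by 0.79 ± 0.0924 at high inositol-choline. HIS3 and LEU2, common marker genes of laboratory strains, read 8.32 to 9.23 and 8.58 to 9.81 over the 24 arrays, well above background in both strains. Under N limitation 2 of 23 were higher in the mutant at each level and none lower by limma, with 4 and 3 at an unadjusted p under 0.05 in either direction. The shares of all genes there were 4.72% and 2.17% higher and 5.01% and 1.98% lower. Between inositol-choline levels 0, 1, 4 and 2 of 23 were higher and 1, 6, 6 and 9 lower, in the order reference C and N, mutant C and N. Calls among all genes were 7.85%, 16.6%, 10.2% and 19.5% higher and 6.96%, 14.9%, 13.2% and 17.7% lower.

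Of 7 pathway regulators, 3, 2, 1 and 3 were called higher under N limitation and 1 lower in each of the 4 comparisons. Of all genes 25.1%, 31.4%, 15.3% and 26.5% were higher and 19.1%, 20.9%, 15.3% and 22.1% lower. ARG81, the arginine sensor of the ArgR complex, was higher under N limitation in all 4 comparisons, by 0.38, 0.47, 0.25 and 0.52. ARG82, an inositol polyphosphate multikinase tied to that complex, was lower in all 4, by 0.49, 0.35, 0.32 and 0.19. LEU3, the leucine pathway activator, was higher under N limitation by 0.22 and 0.37 in the reference strain and by 0.33 in the mutant at high inositol-choline. LYS14, the lysine pathway activator, was higher with high inositol-choline in all 4 comparisons of level, by 0.39, 0.33, 0.30 and 0.44. Between levels 1, 4, 2 and 4 of the 7 were higher and 1, 1, 2 and 0 lower (reference C and N, mutant C and N). Of all genes 7.85%, 16.6%, 10.2% and 19.5% were higher and 6.96%, 14.9%, 13.2% and 17.7% lower. Of 15 genes in the control of Gcn4, 4, 2, 1 and 2 were higher and 1, 1, 1 and 4 lower under N limitation, where 25.1%, 31.4%, 15.3% and 26.5% of all genes were higher and 19.1%, 20.9%, 15.3% and 22.1% lower. GCN20, which acts with GCN1 to activate Gcn2, was higher by 0.64, 0.55, 0.33 and 0.22, and GCN2 by 0.31 and 0.32 in the reference strain and 0.43 in the mutant at high inositol-choline. Both are among the genes that rose, and others of the 15 did not. PCL5 read 7.94 to 8.21 on the N-limited arrays with low inositol-choline and 8.28 to 8.84 on the C-limited arrays. Over all N-limited arrays it read 7.63 to 8.68. In the C-limited mutant 3 and 2 of the 15 were higher, GCN20 by 0.40 and 0.37, where 20.2% and 18% of all genes were called higher. Under N limitation none of the 15 was called by limma between strains, with 2 at low and 0 at high inositol-choline at an unadjusted p under 0.05.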

How the data were processed

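Total RNA was hybridised to 24 Affymetrix yeast arrays, 3 in each of 8 groups taken from the sample titles. The values are those the authors deposited, 1 per probe set on a log2 scale, summarised by PLIER according to the submitters' processing notes. The log base is not stated and was taken as 2. Neither the PLIER version nor the normalization between arrays is given in the sources used here. The values were used as deposited, from 4.82 to 13.25, with array medians of 5.93 to 6.00.

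Of 10928 probe sets, 7244 had 1 gene symbol, 1 had several and 3683 were not listed. Of these 5498 matched S. cerevisiae genes, 12 by an updated symbol. For 47 genes with several probe sets the brightest was kept, leaving 5449 genes.

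A model with 1 mean per group was fitted to all 24 arrays with limma 3.58.1 in R 4.3.3 (16 residual and 18.77 total degrees of freedom after moderation). Contrasts gave 12 pairwise comparisons and 6 interactions, each with Benjamini-Hochberg adjustment over the 5449 genes and a threshold of 0.05. The number of arrays, 3 per group, limits the precision.

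The members and gene lists were chosen with earlier results of these data known. All members could be named, and besides them SNF1, DAL5, HIS3, LEU2, TRP1 and, from each other list, up to 2 called genes per direction and comparison with the smallest adjusted p. A few others of these lists (among them GCN2) are named in further comparisons, chosen after their values were seen.

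Same-numbered arrays deviated together, with all 3 correlations above 0.1, for the mutant between limitations at low inositol-choline (0.173, 0.461 and 0.392) and for the strains under N limitation at low (0.165, 0.313 and 0.405) and high inositol-choline (0.901, 0.784 and 0.868). The labels do not say what a number shares.

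Alternatives were quantile normalization, median centring, a filter that drops 274 dim genes, a fit to the compared groups alone, a block for the replicate number, trended and robust moderation, array weights, a covariate for the 3′ minus 5′ signal, and leaving out the pair of lowest 5′ signal, the 6 arrays of conflicting labels or each array in turn.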

Additional observations from a re-analysis of the deposited data

Results flagged for a closer look

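The change between N and C limitation differed between the strains, by limma's interaction test (mutant minus reference, log2), for the members that follow. At low inositol-choline the interaction was -0.37 for HOM6, -0.38 for THR1, -0.34 for TRP3, -0.34 for HIS7, -0.75 for ARG1, -0.90 for ARG4, -0.42 for ARO1, -0.24 for ARO2 and -0.87 for SER3. It was 0.42 for LEU4 and 0.29 for LYS9. ARO2 was lost when any of 5 arrays was left out and LYS9 without replicate 2 of the N-limited mutant arrays at low inositol-choline.

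At high inositol-choline it was -0.26 for HOM6, -0.40 for THR1, -0.46 for TRP3, -0.67 for TRP4, -0.46 for HIS1, -0.31 for LEU9, -0.52 for ARG1, -0.69 for ARG3, -0.51 for ARG4, -0.48 for ARO2 and -1.04 for SER3. It was 0.38 for LEU4. HIS1 and LEU9 were lost when any of 8 and any of 17 arrays was left out, and HOM6 without replicate 3 of the N-limited mutant arrays at high inositol-choline.

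The change between inositol-choline levels differed between the limitations (N minus C of high minus low) in the reference strain for HOM3, at -0.43, and ARG4, at -0.50, calls lost when any of 17 and any of 19 arrays was left out. In the mutant it differed for HOM2 at -0.74, HOM3 at -0.38, TRP4 at -0.64, LEU1 at -0.71, ARO2 at -0.45 and SER3 at -0.69. Of these, HOM2 was lost when any of 19 arrays was left out, HOM3 any of 8, LEU1 any of 10 and SER3 any of 15.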

How the results depend on the processing

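Counts of called members are given in the order N against C limitation (reference low and high inositol-choline, mutant low and high), mutant against reference (C low, C high, N low, N high), high against low inositol-choline (reference C and N, mutant C and N), strain by limitation (low, high), strain by inositol-choline (C, N) and limitation by inositol-choline (reference, mutant). They were 26, 29, 27, 35, then 21, 19, 4, 2, then 7, 18, 10, 21, then 11, 12, 0, 0, 2 and 6. Without the pair of lowest 5′ signal they were 36, 36, 34, 40, then 34, 32, 20, 4, then 17, 26, 22, 32, then 23, 26, 4, 3, 9 and 19, among 65.8, 66.1, 53.5, 64.4, 58.5, 56.8, 28.5, 9.67, 48.1, 43.9, 53.3, 52, 41.2, 38, 16.8, 7.4, 16.1 and 32.8% of all genes. With array weights, whose iteration stopped before its tolerance was reached, they were 38, 42, 36, 41, then 36, 34, 32, 19, then 18, 36, 27, 35, then 32, 26, 10, 17, 25 and 27, among 69.2, 83.3, 66.1, 72.4, 61.8, 68.4, 51.7, 41.3, 57.6, 75.1, 65, 66.1, 52.7, 60.2, 30.2, 37.3, 52.7 and 51.7% of all genes. With only the arrays compared they were 35, 22, 35, 32, then 33, 34, 28, 0, then 15, 1, 25, 5, then 24, 6, 5, 0, 0 and 7, among 64.8, 29.3, 62.9, 30.4, 55.4, 58.5, 45.9, 0.0918, 34.2, 2.57, 60.6, 13.5, 47.1, 11.3, 15, 0.624, 2.04 and 14.9% of all genes. With the 3′ minus 5′ signal as covariate they were 34, 32, 32, 38, then 37, 33, 20, 6, then 21, 25, 23, 23, then 25, 30, 4, 6, 7 and 18, among 64.7, 64.1, 53, 64.8, 57.3, 55.9, 26.2, 15.5, 46.6, 44.5, 51.9, 53.5, 39.6, 42.1, 13.9, 9.12, 16.1 and 33.1% of all genes. The cause was not tested. With each array left out they ranged over 21 to 30, 27 to 32, 24 to 30 and 34 to 41, then 15 to 27, 16 to 24, 3 to 8 and 1 to 3, then 3 to 10, 11 to 26, 2 to 13 and 13 to 27, then 10 to 15, 10 to 18, 0 to 2, 0 to 1, 0 to 4 and 2 to 11.

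With the replicate number as a block (replicate block) the count between strains under N limitation at high inositol-choline was 7, that of strain by inositol-choline under N limitation 1 and that of limitation by inositol-choline in the reference strain 0, and the other counts stayed within 1.5 times. In the other comparisons whose numbers paired the arrays, the block changed no call of a member. Quantile normalization gave 1 and 1 for the last 2 interactions named, median centring 0 and trended and robust moderation 1 for limitation by inositol-choline in the reference strain. Leaving out dim genes moved no count by over 1.5 times, nor did leaving out the arrays of conflicting labels where these were not compared.

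Of 250 called member values, 230 kept their call with quantile normalization, 243 with median centring, 195 with only the arrays compared, 242 with the block, 246 with trended moderation, 250 with array weights and 248 without the pair. The array weights of the N-limited high reference group were 0.0157, 29.6 and 0.16, so its mean there rests almost wholly on replicate 2. With the covariate 230 values kept their call, and the difference between inositol-choline levels under N limitation changed sign for ARO3 (0.02 in the reference strain, 0.04 in the mutant), HIS5 (0.01, mutant) and ILV5 (0.04, mutant). In 6000 values with 1 array left out, 5607 kept the call and none changed sign. No member's mean lay below the background level.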
